A study of Homo sapiens with 16 samples.

Results

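Expression of 39 genes of the lysosome was examined in HT1080 cells carrying an inducible XIST transgene or, at 1p, also the vector without it. The genes were taken by symbol from a list of the vacuolar H+-ATPase (V-ATPase; 7 V0 subunits, 8 V1 subunits and the accessory subunit ATP6AP1), 10 cathepsins, 7 soluble hydrolases and their helper proteins, 5 membrane proteins and the transcription factor TFEB. All 39 were listed in both deposited expression tables, among 22892 genes in the HiSeq table and 25606 in the NextSeq table. An average of at least 1 FPKM (the fragments of a transcript relative to its length and to the size of the library) was reached by 34 of the 39 in each table, the same 34 genes, and only these entered the tests.

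HT1080 is a human fibrosarcoma cell line. All clones carried a constitutively expressed Tet-repressor transgene, so that XIST, the long non-coding RNA that silences one X chromosome in female cells, could be induced with doxycycline (DOX). Each XIST integration was a Flp-mediated insertion of the full-length cDNA at one FRT site, while the 1p vector clone held no XIST cDNA. The HiSeq table held 6 libraries: the clone with XIST on 8p without doxycycline (8p No DOX) and in 2 replicates after 5 days of it (8p DOX), and, also after 5 days of DOX, XIST on 1p (1p DOX), the vector without XIST on 1p (1p vector DOX) and XIST on 12q (12q DOX). The NextSeq table held 4 libraries, with 1p and 12q each as No DOX and as DOX for 5 days. In each clone the site lay in an intron of a host gene, AGPAT5 for 8p, MACF1 for 1p and FAM222A for 12q. The 12q clone came from another Tet-repressor subclone of HT1080 than the 8p and 1p clones. No clone was represented without DOX in the HiSeq table except 8p, no vector library without DOX was analysed here, and the 2 8p DOX libraries are described as 2 clones, so that differences between them and 8p No DOX could include differences between cell clones.

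The V-ATPase pumps protons into the lysosome. Its V1 part, on the cytosolic side, hydrolyses ATP at sites formed by the A and B subunits, and the rotation this drives is passed through a central stalk to the V0 part in the membrane, where a ring of proteolipid subunits carries the protons. The acid lumen is needed by the cathepsins and the other hydrolases, while glycoproteins such as LAMP1 and LAMP2 line the membrane. TFEB and its relatives TFE3 and MITF bind an E-box, the CLEAR element, in promoters of many lysosomal genes. XIST RNA spreads from its site of transcription along the chromosome in cis, and the question put to these genes was whether those beside an integration, ATP6V1B2 and CTSB on 8p, differed with DOX from the other subunits and enzymes, which lie elsewhere.

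The element shared by members of different role is shown here because it is a feature of the genes that the list did not use. Promoters, mostly upstream of the start and reaching a short way past it, were found in the RefSeq promoter table (GRCh38.p14) for 27 of the 39 genes, 36 promoters in all. The letters TCACGTGA, which read the same on both strands, were in 6 of these (16.7 %) and in 0.98 % of the 35116 promoters of the table. Of 61 promoters of 38 lysosomal genes outside the list, 4 held them (6.56 %). The shorter CACGTG, part of the same letters, was in 11 (30.6 %) against 7.26 %, and in 8 of those 61 (13.1 %). A window of 30 bases around TCACGTGA (capitals) is given 5′ to 3′ on the strand of the gene for the 6 genes that held it.
ATP6V1G1: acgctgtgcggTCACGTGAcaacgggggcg
LAMP1: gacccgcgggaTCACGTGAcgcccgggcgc
ATP6V0D1: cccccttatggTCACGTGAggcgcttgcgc
GAA: gggaggccgcgTCACGTGAcccaccgcggc
MCOLN1: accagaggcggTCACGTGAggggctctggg
CTSA: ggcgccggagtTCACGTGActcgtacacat
These windows lie at chr9:114587699-114587728 (plus strand), chr13:113297199-113297228 (plus), chr16:67481199-67481228 (minus), chr17:80101493-80101522 (plus), chr19:7522571-7522600 (plus) and chr20:45891298-45891327 (plus). The genes with these letters did not share a direction in the 8p clone: the 2 8p DOX libraries were both above 8p No DOX for GAA, both below it for ATP6V1G1, ATP6V0D1, MCOLN1 and CTSA, and on either side of it for LAMP1. With equal medians both were above it for CTSA. A match of letters describes the sequence and does not show that a factor bound there.

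XIST itself was 3.38 FPKM in 8p No DOX and 99.0 and 89.7 in 8p DOX, 23.8 in 1p DOX, 61.9 in 12q DOX and 0.0705 in 1p vector DOX of the HiSeq table, and in the NextSeq table it was 4.17 and 22.0 in 1p without and with DOX and 3.75 and 67.6 in 12q. Of 6 mesenchymal markers VIM, FN1, CD44, MMP14 and SPARC were expressed in every library, and THY1 was at most 0.0813 FPKM. Of the blood markers PTPRC was listed at 0 throughout and CSF1R ranged from 0.341 FPKM in 8p No DOX to 7.37 in 12q No DOX. Epithelial markers stood out in 1 library: in 12q DOX of the NextSeq table EPCAM was 2.38 FPKM, CDH1 1.38 and KRT19 0.964, with none of them above 0.0906 in the other 9 libraries, and 67 genes were at or above 1 FPKM there but under 0.1 in the other NextSeq libraries, against 13 to 17 such genes in each of the others. FPKM hold no read counts, so the depth of the libraries was unknown. In these bulk libraries a lower value from fewer expressing cells and one from less RNA per cell cannot be told apart.

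The lysosomal genes covered a wide range of levels, and FPKM, being per length, allow them to be compared within a table. In the HiSeq table the proteolipid subunit ATP6V0C had the highest mean level (123 FPKM over 6 libraries), followed by LAMP1 (94.2), the saposin precursor PSAP (88.9) and the V1 stalk subunit ATP6V1F (63.5). In the NextSeq table PSAP led with 134 FPKM over 4 libraries, followed by ATP6V0E1 (107). Among paired subunit forms, ATP6V0A1 exceeded ATP6V0A2 on average in both tables (6.48 against 3.42 FPKM, and 6.58 against 4.66), although in the NextSeq 1p DOX library the order was turned (5.02 against 6.15). ATP6V0E1 exceeded ATP6V0E2 in every library. The cysteine protease CTSZ (53.6 FPKM on average in the HiSeq table), the aspartic protease CTSD (53.3), the cysteine protease CTSB (41.2) and the carboxypeptidase CTSA (29.1) were well expressed, and CTSF was low (2.83). CTSC, CTSH, CTSK, CTSO and CTSS averaged under 1 FPKM in both tables. Of these, CTSC was 2.56 FPKM in 12q DOX of the NextSeq table, the library with the epithelial markers, and at most 0.01 in the other 3.

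**Figure D1:**
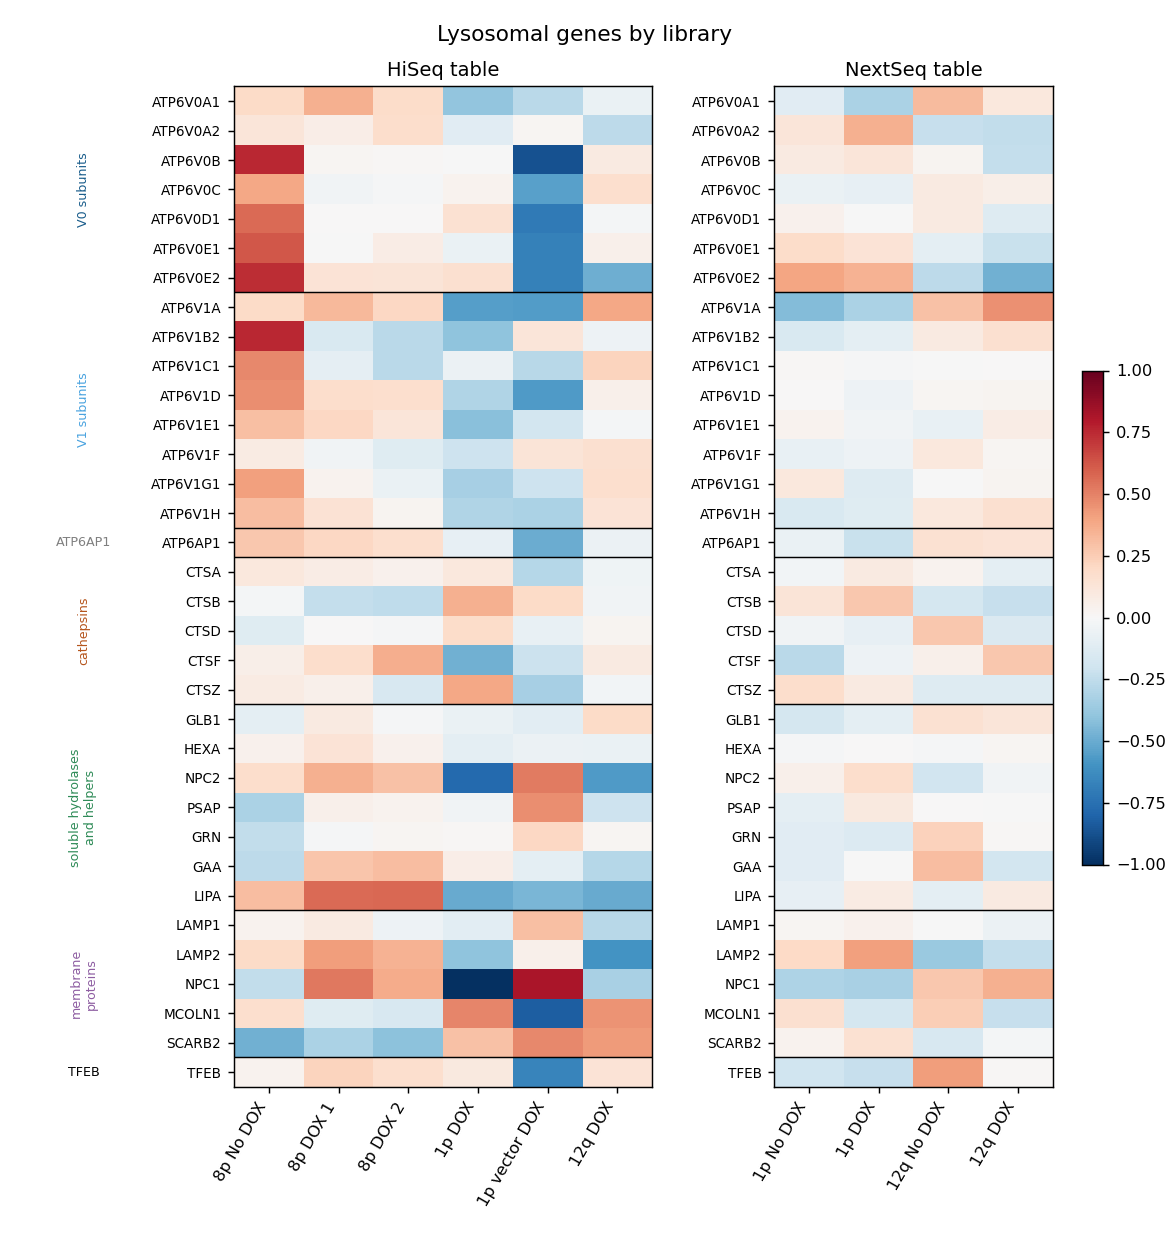
Heat map of log2(FPKM + 1) for the 34 tested genes (rows, by role) in the 6 HiSeq and 4 NextSeq libraries (columns), each gene set relative to its mean in its own table, with the colours ending at 1 above and below the mean. Most V-ATPase rows are highest in 8p No DOX within the HiSeq table (12 of 16), and the V0 rows ATP6V0B, ATP6V0C, ATP6V0D1, ATP6V0E1 and ATP6V0E2 are lowest in 1p vector DOX. The 1p vector DOX library is low over all genes too, with a median of -0.27 against the mean of the 5 other HiSeq libraries.

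In the 8p clone the values of most listed V-ATPase genes were lower with DOX than without, and those of the soluble hydrolases slightly higher. Of the 34 genes, 0 passed the test. Outside the list, the V-ATPase genes TCIRG1, ATP6AP2 and ATP6V1G2 were above 8p No DOX in both 8p DOX libraries. Their differences on log2(FPKM + 1) were 0.58, 0.30 and 0.14. The median difference, 8p DOX minus 8p No DOX on log2(FPKM + 1), was -0.35 over the 16 V-ATPase genes, -0.56 over the V0 subunits and -0.26 over the V1 subunits. It was 0.25 over the 7 soluble proteins and -0.06 over all 11357 genes tested. Limma, with the spread estimated over all 6 HiSeq libraries and Benjamini-Hochberg adjustment, called 10 of the 11357 genes (0.0881 %; 0.0264 % higher and 0.0616 % lower) at an adjusted p under 0.05. At an unadjusted p under 0.05 there were 3 lysosomal genes (ATP6V1B2, ATP6V1C1 and GAA) and 632 genes in all. With only the 3 libraries of the 8p clone in the fit, an alternative chosen after the data were seen in which the spread came from the 2 DOX libraries alone, 3 of the genes were called higher and 10 lower, among 1303 higher and 2252 lower over all genes.

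Among the V0 subunits, ATP6V0B, one of the proteolipids of the ring, was 58.4 FPKM in 8p No DOX, 34.8 and 34.5 in 8p DOX, 34.2 in 1p DOX, 18.3 in 1p vector DOX and 36.6 in 12q DOX. The 8p No DOX library alone was high, the 8p DOX libraries lay within the range of the other clones, and 1p vector DOX was lowest. The difference with DOX in 8p was -0.74 on the log2 scale (SE 0.42, limma adjusted p = 0.86), the largest of the V0 part. ATP6V0E1, a small membrane subunit, was 82.1 FPKM in 8p No DOX, 52.6 and 55.7 in 8p DOX, 50.4 in 1p DOX, 32.8 in 1p vector DOX and 54.9 in 12q DOX, the same order of libraries at its ends. ATP6V0D1, which joins the ring to the central stalk, was 37.4 FPKM in 8p No DOX and 25.0 and 25.0 in 8p DOX. ATP6V0E2 was 8.81 FPKM in 8p No DOX and 5.48 and 5.45 in 8p DOX. ATP6V0C was 159 and then 118 and 120.2 FPKM. In each of these 5 subunits the 2 8p DOX values were close to each other and both below the single No DOX value. The 2 forms of the large a subunit behaved otherwise. ATP6V0A1 was 7.42 FPKM in 8p No DOX and 8.39 and 7.34 in 8p DOX, and ATP6V0A2 was 3.78, 3.61 and 3.97, so that the No DOX value of both lay between the DOX values.

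Of the V1 subunits, ATP6V1B2 had the largest difference (-0.97), followed by ATP6V1C1 (-0.66), a regulator of assembly encoded on the long arm of chromosome 8, and ATP6V1G1 (-0.43), a peripheral stalk subunit. ATP6V1C1 was 9.03 FPKM in 8p No DOX and 5.75 and 4.97 in 8p DOX. ATP6V1D, ATP6V1H, ATP6V1F and ATP6V1E1 lay between -0.30 and -0.14. The catalytic subunit ATP6V1A was the exception, with 28.6 FPKM in 8p No DOX and 31.5 and 28.9 in 8p DOX, both above it.

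Both 8p DOX libraries were below 8p No DOX for 13 of the 16 V-ATPase genes and for 4 of the 18 others, where 51.4 % of all genes tested showed this (43.6 % after the libraries were shifted to equal medians, with the same 13 V-ATPase genes and with 2 of the others, CTSB and MCOLN1). Both were lower by at least 0.5 for 6 of the 34 genes, all of the V-ATPase (ATP6V0B, ATP6V0D1, ATP6V0E1, ATP6V0E2, ATP6V1B2 and ATP6V1C1), against a background of 7.55 %. With equal medians 4 remained, without ATP6V0D1 and ATP6V0E1, against 5.49 %. The 2 differences share the 8p No DOX library, and its level sets both. That library was above all 5 HiSeq libraries with DOX, of whatever clone, for 12 of the 16 V-ATPase genes and for 0 of the 18 others (35.1 % of all genes; with equal medians the same counts, 16.6 %). Since it was the only HiSeq library without DOX, an effect of DOX, one of XIST and a property of that library cannot be told apart.

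Of the 18 tested genes outside the V-ATPase, 13 had a fitted difference in 8p above 0 and 5 below. Over all 11357 genes, 4815 lay above 0 and 6510 below. All 7 soluble proteins had a fitted difference above 0, from 0.05 for HEXA to 0.55 for GAA, and 6 of the 7 were above No DOX in both DOX libraries (36.5 % of all genes). GAA, the acid glucosidase that degrades glycogen, was 4.30 FPKM in 8p No DOX, 6.69 and 6.83 in 8p DOX, 5.64 in 1p DOX, 4.92 in 1p vector DOX and 4.19 in 12q DOX. Both 8p DOX values were the highest of the table, and 8p No DOX lay within the range of the other clones. PSAP was 70.1 FPKM in 8p No DOX and 90.9 and 89.6 in 8p DOX, and GRN, the precursor of the granulins, was 37.3, 44.0 and 45.2. For both, 8p No DOX was the lowest HiSeq library, as it was for 4 of the 34 genes and 6.69 % of all genes (7 and 17.4 % with equal medians). The sterol transporter NPC1, which passes cholesterol out of the lysosome, had the largest difference of the 34 genes in this direction, 0.70 (SE 0.73, limma adjusted p = 0.89). It was 37.0 FPKM in 8p No DOX, 64.0 and 57.4 in 8p DOX, 19.5 in 1p DOX, 78.6 in 1p vector DOX and 35.0 in 12q DOX, and the spread between the other clones was wider than the difference within 8p. Both 8p DOX libraries were higher by at least 0.5 for NPC1 and GAA alone among the members, 2 of 34, against 4.37 % of all genes. The calcium channel MCOLN1 was lower, 3.38 FPKM in 8p No DOX and 2.60 and 2.49 in 8p DOX, and the cathepsins were between -0.23 (CTSB) and 0.21 (CTSF).

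**Figure D2:**
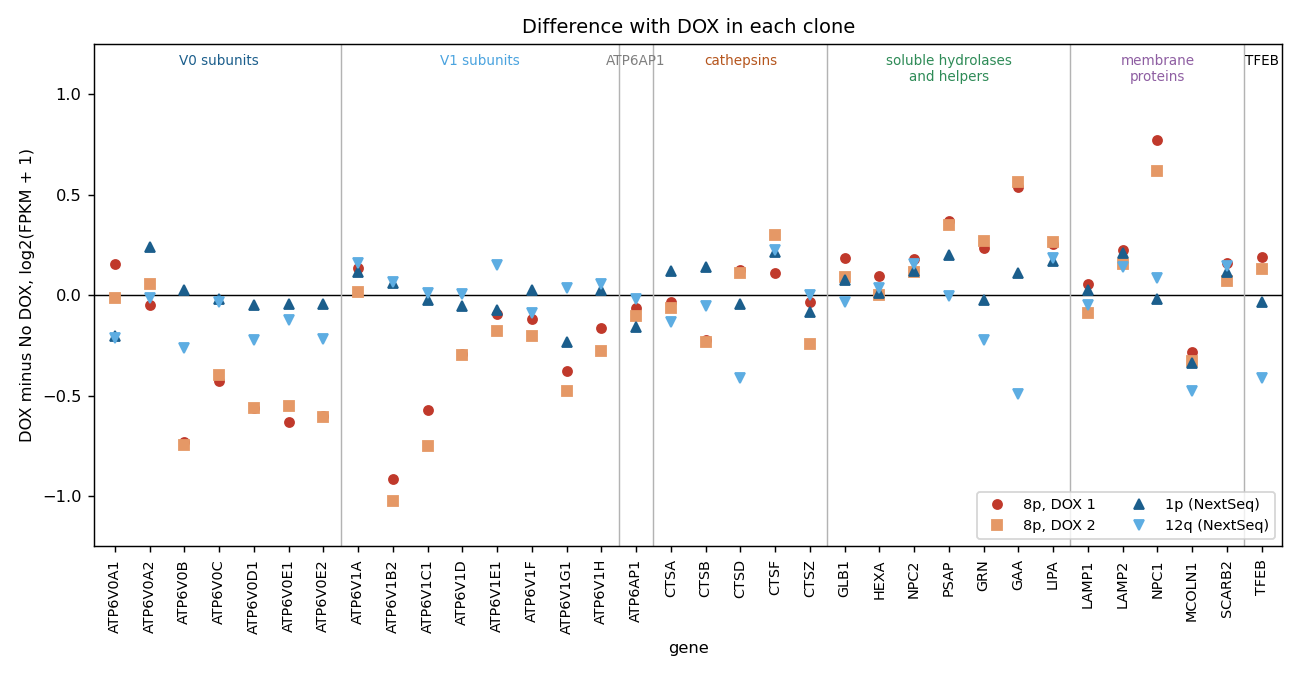
Difference DOX minus No DOX on log2(FPKM + 1) for the 34 tested genes, by role, for each 8p DOX library against the one 8p No DOX library (HiSeq) and for the 1p and 12q clones (NextSeq, 1 library each). The 8p points reach -1.02 for ATP6V1B2 and lie below 0 for most V-ATPase genes, while those of 1p and 12q all stay within 0.5 of 0.

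ATP6V1B2, the B subunit that forms the ATP-binding sites together with ATP6V1A, lies on 8p at chr8:20098984-20123487 (hg18), 13.5 Mb from AGPAT5. It was 35.7 FPKM in 8p No DOX, 18.5 and 17.1 in 8p DOX, 15.4 in 1p DOX, 22.6 in 1p vector DOX and 20.0 in 12q DOX. The 8p No DOX value was the highest, and the 8p DOX values were 48.2 % and 52.2 % below it but overlapped those of the other clones, none of which had XIST on chromosome 8. Its difference of -0.97 (SE 0.26, limma adjusted p = 0.85) was the lowest of the 8 V1 subunits, of the 16 V-ATPase genes and of the 34 genes. The 70 genes within 10 Mb of it had a median of -0.28, which left -0.69 for ATP6V1B2. Against the median of the other 7 V1 subunits in the same library, the level of ATP6V1B2 on log2(FPKM + 1) was 0.12 in 8p No DOX and -0.74 and -0.73 in 8p DOX. The same quantity was -0.27 in 1p DOX, 0.42 in 1p vector DOX and -0.69 in 12q DOX, so that a level this far below the other subunits was also seen in 12q. In the NextSeq clones, with XIST on other chromosomes, ATP6V1B2 was 33.3 FPKM in 1p No DOX, 34.7 in 1p DOX, 39.7 in 12q No DOX and 41.6 in 12q DOX, with DOX differences of 0.06 and 0.07.

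CTSB, an abundant lysosomal cysteine protease, lies nearer to the integration, at chr8:11737443-11763055 (hg18), 5.17 Mb from AGPAT5. It was 40.2 FPKM in 8p No DOX, 34.3 and 34.04 in 8p DOX, 52.4 in 1p DOX, 46.8 in 1p vector DOX and 39.7 in 12q DOX. The 8p DOX values were 14.6 % and 15.4 % below 8p No DOX and were the lowest of the table, and 8p No DOX itself lay just above 12q DOX. The difference with DOX was -0.23 (SE 0.23, limma adjusted p = 0.89), the lowest of the 5 tested cathepsins. It was close to the median of the 32 genes within 10 Mb (-0.28), from which it differed by 0.053, or by -0.082 with a window of 5 Mb. Relative to the median of the other 4 tested cathepsins, CTSB was 0.04 in 8p No DOX, -0.23 and -0.14 in 8p DOX and between 0.05 and 0.56 in the other HiSeq clones. Only CTSB and SCARB2 of the 34 genes were lower in both 8p DOX libraries than in all 3 other clones, where 10.9 % of all genes were. With equal medians this held for 7 genes, CTSB and SCARB2 among them, against 23.6 %.

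The nearer of the 2 genes on 8p had the smaller difference in size, with -0.23 at 5.17 Mb against -0.97 at 13.5 Mb. Of the members elsewhere on the chromosome, ATP6V1H at 48.3 Mb had -0.22 and ATP6V1C1 at 97.5 Mb had -0.66. The acid ceramidase gene ASAH1, a lysosomal gene outside the list at 11.4 Mb from the site, was 8.37 FPKM in 8p No DOX and 7.98 and 7.86 in 8p DOX, a difference of -0.07.

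**Figure D3:**
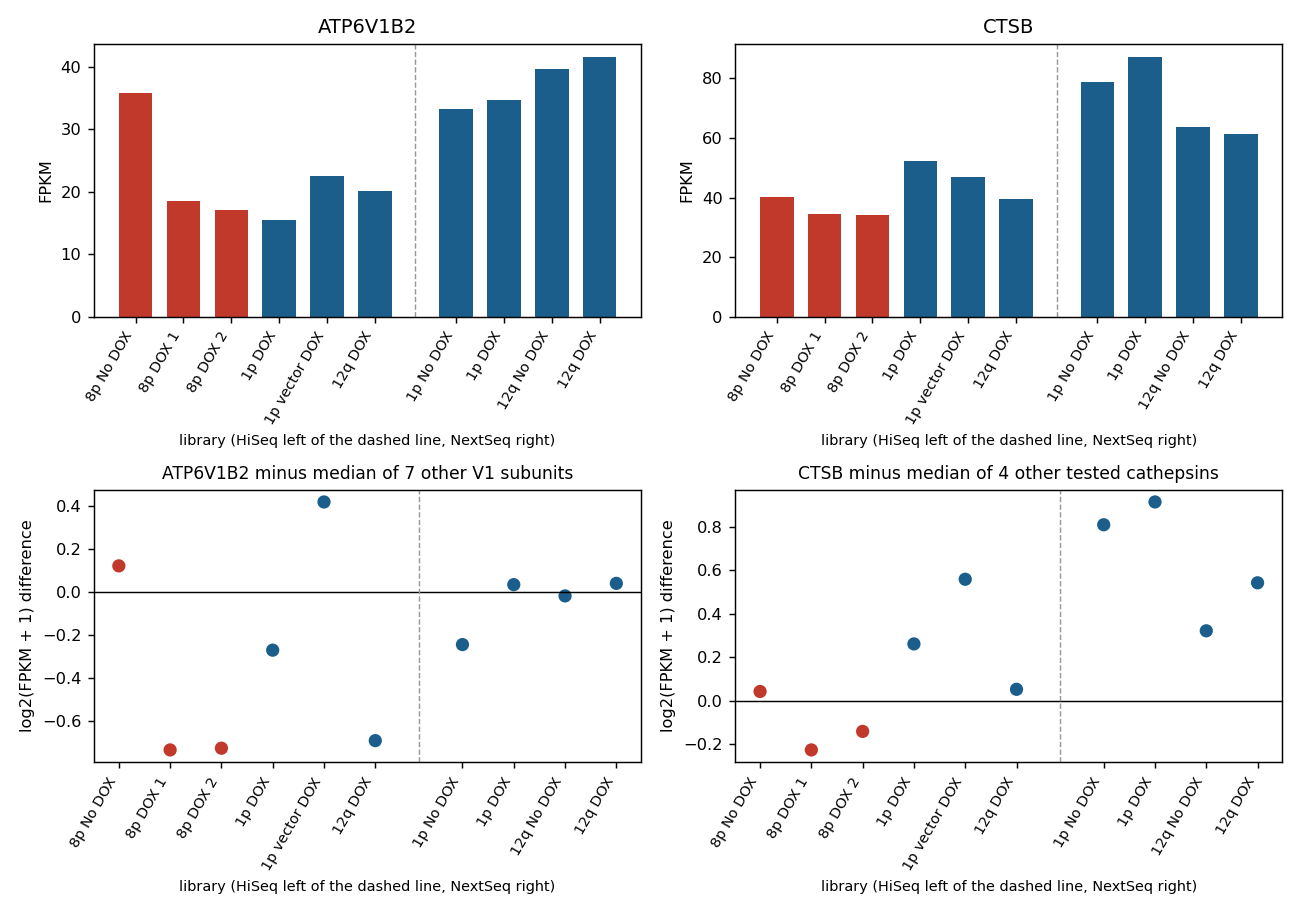
FPKM of ATP6V1B2 and CTSB in each library (top) and their log2(FPKM + 1) minus the median of the other V1 subunits or the other tested cathepsins of the same library (bottom), with the 8p clone in red. ATP6V1B2 is at 35.7 FPKM in 8p No DOX and 15.4 to 22.6 in the 5 HiSeq libraries with DOX, and CTSB is lowest in the 2 8p DOX libraries.

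The 8p clone was next compared with the 3 other HiSeq clones. The 8p group pooled libraries without and with DOX at a single integration site, and each other clone gave 1 library. The SD and p-values of this comparison therefore do not measure a spread between replicates of a clone. Over all genes the 3 8p libraries were higher by a median of 0.22, and 466 genes (4.1 %) were called higher and 121 (1.07 %) lower. With equal medians the calls were 192 and 255, so the balance of directions depended on the scaling. Among the 34 genes 1 was called higher, LIPA, and 1 lower, SCARB2, and both were called with equal medians too. LIPA, the acid lipase that hydrolyses cholesteryl esters, was 20.7 FPKM in 8p No DOX, 24.9 and 25.1 in 8p DOX, 11.4 in 1p DOX, 11.8 in 1p vector DOX and 11.4 in 12q DOX. The mean was 23.6 ± 2.48 FPKM (SD, n = 3) in 8p and 11.5 ± 0.224 (SD, n = 3) in the other clones, without overlap. The difference was 0.97 (SE 0.14, limma adjusted p = 0.0169), which is 0.76 relative to the median of all genes. SCARB2, the receptor that carries glucocerebrosidase to the lysosome, was 8.65 FPKM in 8p No DOX, 9.79 and 9.11 in 8p DOX, 15.4 in 1p DOX, 17.7 in 1p vector DOX and 17.1 in 12q DOX. The mean was 9.18 ± 0.576 FPKM (SD, n = 3) in 8p and 16.7 ± 1.20 (SD, n = 3) in the others. All 3 8p values lay below the others, a log2 difference of -0.80 (SE 0.13, limma adjusted p = 0.0263; -1.02 relative to all genes). SCARB2 lies on chromosome 4, and the 44 tested genes within 10 Mb of it were also lower in 8p, with a median of -0.47. Relative to these neighbours SCARB2 had a difference of -0.33, and the part of the region in the difference was not tested.

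Neither call was kept when either 8p DOX library was left out (0 and 0 genes). SCARB2 was not called without 1p vector DOX, nor without 8p No DOX. Without 1p vector DOX, LIPA and NPC2 were called higher, among 175 of the 11357 genes. Without 12q DOX 4 of the 34 genes were called higher (ATP6V0A1, ATP6V1A, ATP6V1D and LIPA), among 1536 of the 11357 genes. The V-ATPase genes were higher in 8p by a median of 0.40, with 0 of 16 called. An unadjusted limma p under 0.05 was found for 5 of the 16 and for 3289 of the 11357 genes. A difference above 0 was found for 15 of the 16 and for 8546 of the 11357 genes. All 3 8p libraries exceeded the 3 others for 8 of the 34 genes (31.8 % of all genes), namely ATP6V0A1, ATP6V0A2, ATP6V1D, ATP6V1E1, ATP6AP1, LAMP2, HEXA and LIPA, and were below them for SCARB2 alone (5.38 %). ATP6V1B2 differed by 0.22 (adjusted p = 0.64, limma) and by -0.10 when 8p No DOX was left out. CTSB differed by -0.34 (adjusted p = 0.20, limma).

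**Figure D4:**
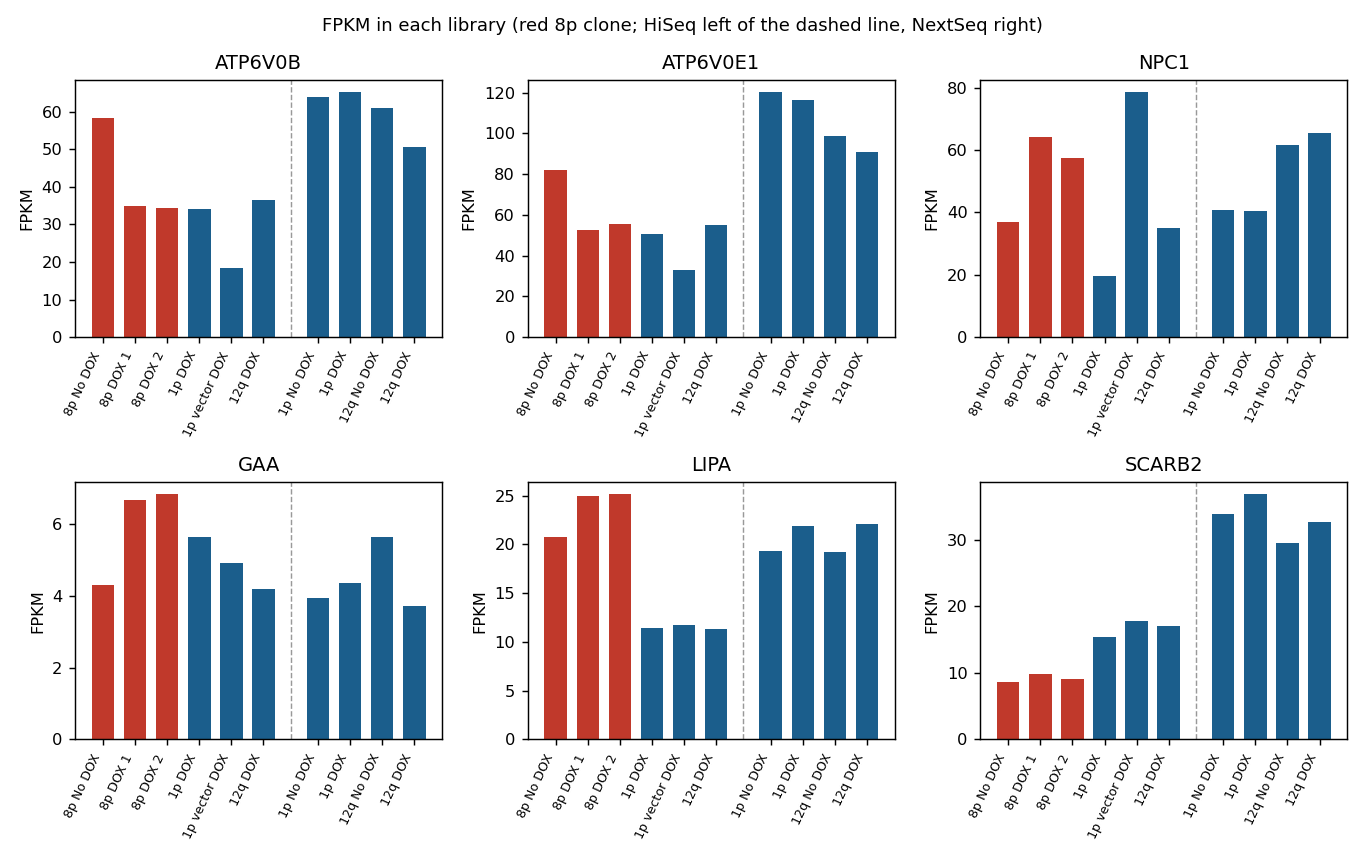
FPKM of ATP6V0B, ATP6V0E1, NPC1, GAA, LIPA and SCARB2 in each library, 8p in red, HiSeq to the left and NextSeq to the right of the dashed line. ATP6V0B and ATP6V0E1 are highest in 8p No DOX among the HiSeq libraries, LIPA is higher and SCARB2 lower in all 3 8p libraries, and NPC1 ranges from 19.5 to 78.6 FPKM over the HiSeq clones.

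At the 1p site the HiSeq table held an XIST and a vector library, both with DOX and 1 of each. No test was made, and a difference of at least 0.5 on the log2 scale was counted. XIST was higher for 8 of the 34 genes (17.6 % of all genes) and lower for 3 (9.84 %). With equal medians 7 were higher, without ATP6V0C, and 5 lower, with LAMP2 and PSAP added, against 13 % and 12.8 % of all genes. The 8 were 5 V0 subunits, from 0.58 for ATP6V0C to 0.87 for ATP6V0B, with CTSZ (0.72), TFEB (0.76) and MCOLN1 (1.31). MCOLN1 was 4.47 FPKM with XIST and 1.21 with the vector, the lowest HiSeq value. The 3 lower genes were NPC1 (-1.96), NPC2 (-1.30), its soluble partner in cholesterol export, and ATP6V1B2 (-0.52). NPC2 was 68.0 FPKM in 8p No DOX, 77.1 and 73.7 in 8p DOX, 34.5 in 1p DOX, 86.4 in 1p vector DOX and 40.1 in 12q DOX. For both NPC genes 1p DOX was the lowest and 1p vector DOX the highest library, with no replicate of either to give a spread. The 5 V0 subunits that were higher with XIST by at least 0.5 were also below 8p No DOX in both 8p DOX libraries. That is a looser rule. Both 8p DOX libraries were lower by at least 0.5 for 4 of them, without ATP6V0C (-0.43 and -0.40). With equal medians this held for 2, ATP6V0B and ATP6V0E2. The share of all genes with both patterns was not counted. Each of the 5 subunits had its lowest HiSeq value in the vector library. That library was low over all genes, with a median of -0.27 against the mean of the 5 other HiSeq libraries. On this measure the 5 subunits lay between -1.04 (ATP6V0B) and -0.66 (ATP6V0C). The share of all genes with their lowest value there was not counted.

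In the NextSeq clones the differences with DOX were small. Limma with clone as a term called 0 of the 34 genes, and 1 of 11397 genes in all, lower (0.00877 %), with 3 of the 34 and 746 genes in all at an unadjusted p under 0.05. The fit leaves 1 residual degree of freedom. The median difference was -0.03 over the V-ATPase genes, -0.12 over the V0 subunits and -0.01 over all genes. The 3 largest differences were those of MCOLN1 (-0.41, SE 0.10, limma adjusted p = 0.70), CTSD (-0.23) and TFEB (-0.22). MCOLN1 was 5.00 FPKM in 1p No DOX, 3.75 in 1p DOX, 5.36 in 12q No DOX and 3.56 in 12q DOX, lower with DOX in both clones. CTSD was 54.6 FPKM in 1p No DOX, 52.9 in 1p DOX, 67.6 in 12q No DOX and 50.5 in 12q DOX, and only the 12q pair differed by more than 0.1. TFEB was 1.36 FPKM in 1p No DOX, 1.30 in 1p DOX, 2.63 in 12q No DOX and 1.72 in 12q DOX. In 1p and in 12q, 0 of the 34 genes differed by 0.5 or more. Over all genes 0.632 % were higher and 0.851 % lower by that much in 1p, and 1.12 % and 3.31 % in 12q. The differences of the V0 subunits in 12q all lay below 0, from -0.26 for ATP6V0B to -0.02 for ATP6V0A2, with a median of -0.21, and there the epithelial markers of 12q DOX move with the same contrast. Their part in it was not tested. Differences opposite in sign and over 0.1 in both clones from those in both 8p DOX libraries were found for 0 genes. The difference between 8p and these clones was not tested, since the tables were made separately.

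A member also lay near each of the other sites. ATP6V0B, on 1p at chr1:44213189-44216559 (hg18) and 4.69 Mb from MACF1, was 64.0 FPKM in 1p No DOX, 65.3 in 1p DOX, 61.0 in 12q No DOX and 50.7 in 12q DOX. Its difference with DOX in the 1p clone was 0.03, or 0.076 relative to the 137 genes within 10 Mb of it, while it was -0.26 in 12q, where XIST was on another chromosome. ATP6V0A2, at chr12:122762818-122812254 (hg18) and 14.1 Mb from FAM222A, was 5.06 FPKM in 1p No DOX, 6.15 in 1p DOX, 3.75 in 12q No DOX and 3.70 in 12q DOX. Its difference in the 12q clone was -0.02, or 0.080 relative to 101 genes nearby. Neither difference lay below the median of its neighbours.

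Between the NextSeq clones the differences were larger than those with DOX, and 7 of the 34 genes were called higher in 12q and 7 lower. Over all genes 17.9 % were called higher and 15 % lower, so the calls among the members were about as frequent as among all genes. The catalytic subunit ATP6V1A was 28.4 FPKM in 1p No DOX, 30.8 in 1p DOX, 47.7 in 12q No DOX and 53.5 in 12q DOX, higher in both 12q libraries, by 0.75 (SE 0.06, limma adjusted p = 0.00444). NPC1 was 40.9 FPKM in 1p No DOX, 40.3 in 1p DOX, 61.6 in 12q No DOX and 65.3 in 12q DOX, higher by 0.63 (adjusted p = 0.00632, limma). ATP6V0A1 (0.43), ATP6AP1 (0.29), GLB1, the lysosomal galactosidase (0.27), ATP6V1H (0.27) and ATP6V1B2 (0.25) were also higher. ATP6V0E2 was 9.14 FPKM in 1p No DOX, 8.83 in 1p DOX, 5.45 in 12q No DOX and 4.55 in 12q DOX, a difference of -0.74 (SE 0.09, limma adjusted p = 0.00934). LAMP2, one of the 2 main membrane glycoproteins, was 31.7 FPKM in 1p No DOX, 36.9 in 1p DOX, 21.0 in 12q No DOX and 23.2 in 12q DOX, a difference of -0.61 (adjusted p = 0.00709, limma), while LAMP1 lay between 89.4 and 95.6 FPKM in the 4 libraries. ATP6V0A2 (-0.48), CTSB (-0.40), ATP6V0E1 (-0.32), CTSZ (-0.26) and NPC2 (-0.23) were the other genes called lower. CTSB was 79.0 FPKM in 1p No DOX, 87.2 in 1p DOX, 63.7 in 12q No DOX and 61.4 in 12q DOX, and both 12q values lay below both 1p values.

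The a subunits differed in opposite directions between the clones, with ATP6V0A1 higher and ATP6V0A2 lower in 12q. Of the V1 subunits 3 were called higher and 0 lower, and of the V0 subunits 1 and 3 (17.9 % and 15 % of all genes). Several of these calls depended on the fit. Of 8 fits, ATP6V1B2 and ATP6V1H were called in 4, ATP6V0A1 in 6, and ATP6V0A2 and ATP6V0E1 in 5. ATP6V1A, NPC1, ATP6V0E2 and LAMP2 were called in all 8 fits that were made of this comparison. Without 12q DOX, the library with the epithelial markers, 1 12q library remained. In it ATP6V1A (47.7 FPKM) and NPC1 (61.6) lay above both 1p libraries, and ATP6V0E2 (5.45) and LAMP2 (21.0) below both. The clone difference includes the 2 Tet-repressor subclones, which cannot be told apart from it. With 1 clone at each site, the p-values of this comparison measure no spread between clones.

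**Figure D5:**
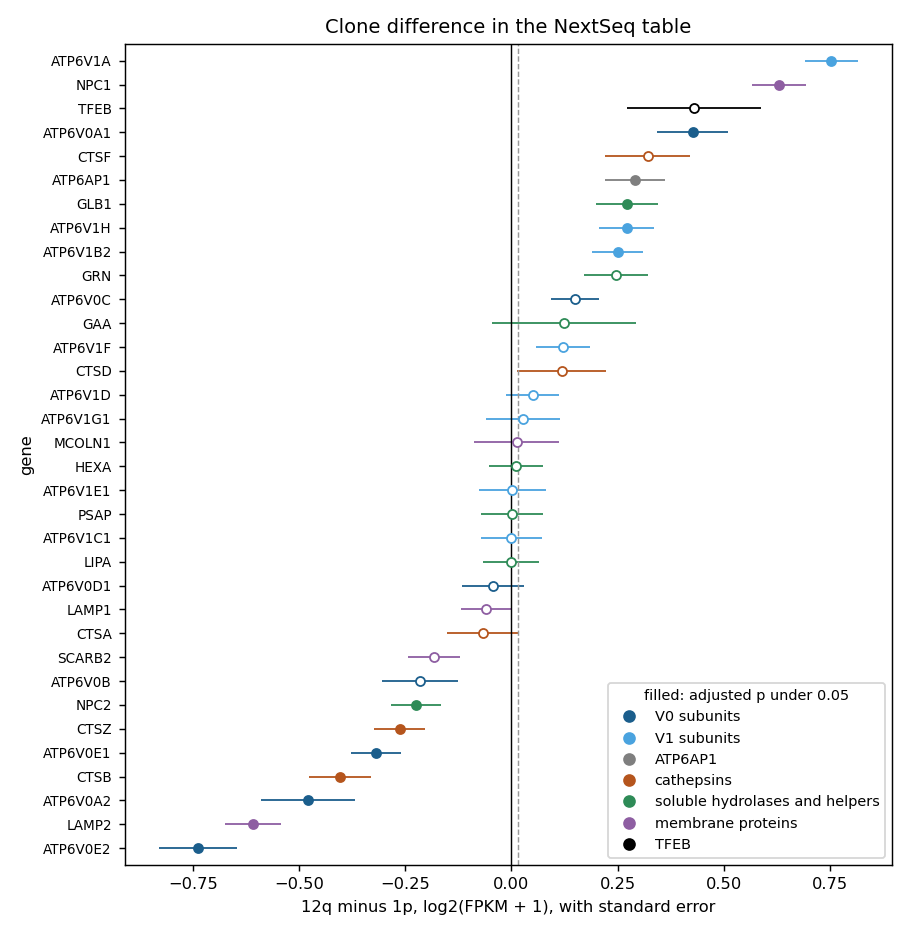
Difference 12q minus 1p on log2(FPKM + 1) with its standard error from limma for the 34 tested genes in the NextSeq table, coloured by role, filled where the adjusted p was under 0.05; the dashed line marks the median of all genes. ATP6V1A (0.75) and NPC1 (0.63) are at the top, ATP6V0E2 (-0.74) and LAMP2 (-0.61) at the bottom.

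Of the transcription factors, TFEB was 2.16 FPKM in 8p No DOX, 2.60 and 2.47 in 8p DOX, 2.31 in 1p DOX, 0.952 in 1p vector DOX and 2.40 in 12q DOX, lowest in the vector library and alike in the others. TFE3 lay between 18.3 and 22.6 FPKM in the HiSeq and between 14.9 and 16.4 in the NextSeq libraries, with 0 calls in the 4 tested comparisons. MITF varied most. It was 8.01 FPKM in 8p No DOX, 5.60 and 5.33 in 8p DOX, 0.992 in 1p DOX, 0.383 in 1p vector DOX and 4.64 in 12q DOX, high in the 8p and 12q libraries and near 1 or below in both 1p libraries. In the NextSeq table it was 1.77 FPKM in 1p No DOX, 1.32 in 1p DOX, 4.93 in 12q No DOX and 4.75 in 12q DOX, higher in 12q by 1.21 (limma adjusted p = 0.00605). Of 52 further lysosomal genes 40 were tested in each table. In 8p DOX against No DOX, 0 were called and their median was -0.02. Both DOX libraries were lower by at least 0.5 for 0 of the 40 (7.55 % of all genes). Both were higher by at least 0.5 for 3 of the 40, TCIRG1, IDUA and SLC17A5 (4.37 % of all genes). Against the other HiSeq clones 5 were called higher in 8p (ATP6AP2, ARSB, TPP1, LAPTM4A and SORT1) and 0 lower, against 4.1 % and 1.07 % of all genes, and with equal medians 0 in either direction. ATP6AP2, the other accessory subunit of the V-ATPase, was 26.0 FPKM in 8p No DOX, 31.1 and 33.5 in 8p DOX, 12.8 in 1p DOX, 15.2 in 1p vector DOX and 17.8 in 12q DOX, with all 3 8p values above the rest. With DOX, 0 were called in the NextSeq libraries, and 6 were called higher and 7 lower in 12q than in 1p, where 17.9 % and 15 % of all genes were.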

How the data were processed

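RNA was sequenced from HT1080 clones in 2 separate series of poly(A)-selected libraries, 6 on a HiSeq and 4 on a NextSeq. FPKM were deposited by the authors, who used TopHat for the alignment (hg18) and Cufflinks for the estimates; tool versions and the annotation are not given in the sources used here. Being normalised to transcript length and library size, FPKM hold no counts, and intervals that need the depth were not computed. The strand of the reads was kept in the library preparation, but whether the FPKM used it is not stated. Excluded were lines with a repeated symbol (739 and 882) or a date in its place (22 per table) and 2 NextSeq genes with no value. For 10642 of the 11397 tested NextSeq genes, a position was found by symbol among the HiSeq genes. The tables were compared only within themselves.

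Tests covered genes averaging 1 FPKM or more, on log2(FPKM + 1), a scale that understates the change of low genes, with limma 3.58.1 in R 4.3.3 (lmFit, eBayes with trend, Benjamini-Hochberg adjustment over all genes of the table; called at an adjusted p under 0.05). For 8p DOX against 8p No DOX the 6 HiSeq libraries were fitted in 3 levels, with the single No DOX library assumed to vary like the others. In the HiSeq fits over clones the p-values measure the spread between these libraries and clones. In the NextSeq fit clone and DOX were both terms, so its p-values measure no spread between clones. The fits were tested on simulated data. The members, gene lists, markers and motifs were chosen with earlier results of these data known. Values in every library were given for ATP6V1B2, CTSB, members near another site, the members called in a comparison (the 10 largest where more were called) or, with none called, the 3 largest, with further members shown as examples of their role. Alternatives changed the pseudocount, the filter, the scaling, the trend, the model terms and the libraries. Python 3.11.15 was used for the remaining values. The ChIP-seq samples were not analysed here.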

Additional observations from a re-analysis of the deposited data

How the results depend on the processing

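Without clone replicates the DOX comparisons rest on single No DOX libraries, and FPKM give no depth. For 8p DOX against No DOX 0 members were called in each fit over 5 or 6 HiSeq libraries; with the 3 8p libraries alone, 3 were called higher and 10 lower. Against the 4 other HiSeq libraries as 2 levels ATP6V0B was 0.022. Over all genes the 3 higher and 7 lower calls became 1303 and 2252 with the 8p libraries alone, 3 and 0 with a pseudocount of 0.1, 1 and 0 with a filter of 5 FPKM, 3 and 18 without a filter, and 2 and 0 as 2 levels.

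For 8p against the other HiSeq clones, leaving out 1 library at a time gave 0 to 4 members higher and 0 to 1 lower, and leaving out 8p No DOX gave 0 lower and ATP6V1B2 at -0.10. Over all genes the 466 higher and 121 lower calls became 192 and 255 with equal medians, 103 and 36 without 8p No DOX, 236 and 84 without a filter, 384 and 65 with a filter of 5 FPKM, and 19 to 1536 and 12 to 188 with 1 library left out. For the NextSeq clones, 3 members were higher with equal medians, 3 higher and 2 lower without a filter, 3 and 4 without the trend, and 2 lower without 12q DOX. Over all genes the 2038 and 1704 calls became 1156 and 815 without a filter, 1563 and 1058 without 12q DOX, and 1813 and 2067 with equal medians. For NextSeq DOX the calls over all genes were 0 or 1 in each direction, and without the clone term 58 genes instead of 746 had an unadjusted p under 0.05.

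With a fold of 0.3, 1 member was lower in 1p with DOX (3.31 % of all genes) and 4 in 12q (12.1 %), with 0 higher in either (2.18 % and 3.45 %). In 1p XIST against vector 10 were then higher (31.4 %) and 7 lower (18.1 %), and with equal medians and the fold of 0.5 there were 5 lower. In 12q a pseudocount of 0.1 gave 3 lower, and no filter gave 1 higher, CTSC. Relative to neighbours, CTSB was 0.11 with a pseudocount of 0.1 and -0.082 and 0.079 within 5 and 20 Mb, ATP6V0B was 0.080, 0.091 and 0.066, and ATP6V0A2 was 0.084, 0.047 and 0.10, in the same order. The cause of these shifts was not tested. By replicate number no paired analysis was possible, although 1A recurs in both 12q NextSeq libraries, since no comparison shares 2 numbers between its arms. The clone term pairs the NextSeq libraries of each clone.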
